A study of Homo sapiens with 6 samples.

Results

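The 8 genes IL13RA2, IL13RA1, IL4R, IL7R, IL2RG, TSLP, IL15 and IL15RA were taken by name from the 58174 genes in the files. They include 6 receptor chains and 2 ligands. They were chosen with the difference between the groups already known, so the differences given for these 8 genes are a description and carry no test. SiHa is an established human line of cervical squamous cell carcinoma. In the OV-BRCA1 group (3 samples), SiHa cells were transfected with the GV230-BRCA1 plasmid, which carries the tumor suppressor BRCA1, and in the NC group (3 samples) with the empty GV230 plasmid. Both groups received plasmid DNA with Lipofectamine 3000 and were collected 48 h later, so the overexpression is transient, and a change in every cell and a change in a fraction of the cells cannot be told apart in such bulk RNA.

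Class I cytokine receptors are built from chains that bind a cytokine outside the cell and JAK kinases inside it. IL4R with IL13RA1 forms the receptor through which epithelial cells respond to IL-4 and IL-13, and it signals through STAT6. IL13RA2 binds IL-13 tightly, has only a short intracellular tail and is best known as a decoy receptor. IL2RG is the common gamma chain that lymphocytes pair with IL4R, IL7R and other chains, whereas IL7R pairs either with IL2RG for IL-7 or with CRLF2 for TSLP, an epithelial alarm cytokine. IL15RA presents IL15 to neighboring cells and is itself not a member of the class I family.

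Expression is given as FPKM, the fragments of a transcript divided by its length and by the mapped total, summed over the transcripts of a gene. Log2 fold changes compare OV-BRCA1 with NC on log2(FPKM + 1), a scale that understates the change of genes with low values. The files hold no counts, and the depth estimated from the step of the low FPKM values was between 14.32 and 19.9 M fragments per sample. BRCA1 (ENSG00000012048) stood at 35.7, 40.8 and 34.9 FPKM in the OV-BRCA1 samples and at 20.1, 14.9 and 21.7 FPKM in the NC samples, in the direction of the labels. Its means differed 1.97-fold. The log2 fold change was 0.95, or 0.99 with 0.1 added to FPKM, short of the size of 1 that the study used for screening. Of 14 squamous epithelial markers 5 stayed below 1 FPKM in every sample, namely KRT5, KRT14, KRT19, CDH1 (E-cadherin) and TP63, which include defining genes of squamous cells. The summed level of the 14 was 3414 to 3571 FPKM in the OV-BRCA1 group and 3807 to 3930 FPKM in the NC group, and its largest part was the keratin KRT7, between 1544 and 1732 FPKM. Markers of lymphocytes, the cells best known for IL7R and IL2RG, were near the bottom of the scale. All 14 stayed below 1 FPKM in every sample, 5 of them, among them PTPRC (CD45) and CD3D, were listed at 0 throughout, and their summed level was 0.52 to 0.88 FPKM in the OV-BRCA1 group and 0.766 to 1.12 FPKM in the NC group. Of 10 myeloid markers 8 stayed below 1 FPKM in every sample, and the summed level was 31.95 to 37.6 FPKM against 22.8 to 24.03 FPKM. That sum was made almost wholly of CD68, a lysosomal protein, which was higher in the OV-BRCA1 group, and CD14, a coreceptor for bacterial lipopolysaccharide, which was lower. The part of these markers in the results below was not tested.

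IL13RA2, IL7R and IL15RA lay higher in every OV-BRCA1 sample than in any NC sample, and the other 5 genes overlapped between the groups. Among the 16321 genes tested the groups were separated in 50.8%, upward in 23.4% and downward in 27.4%, and because the genes were chosen on this difference nothing is read from their number.

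**Figure D1:**
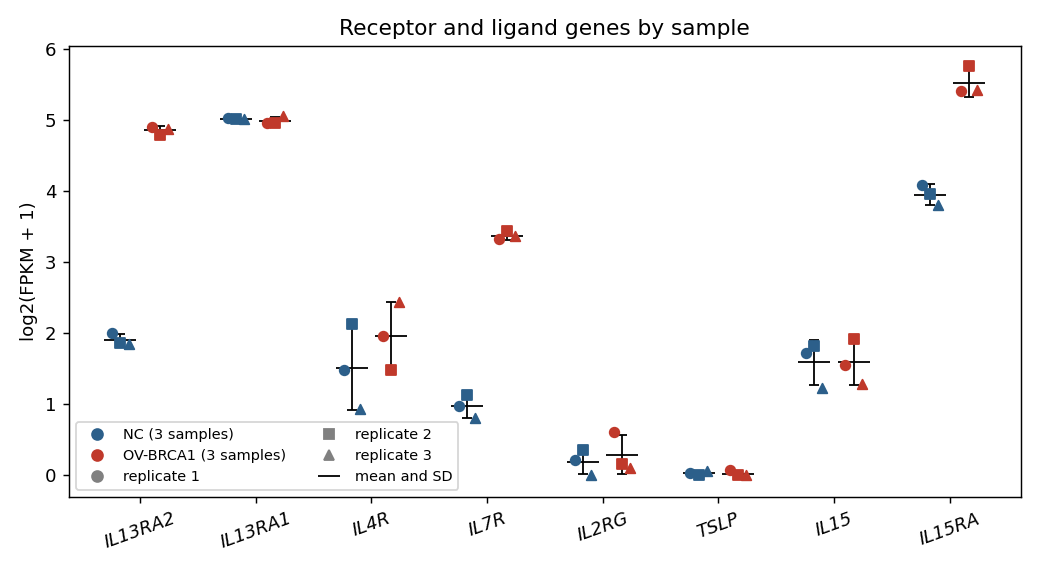
Levels of the 8 genes in each of the 6 samples, on the vertical axis as log2(FPKM + 1), with NC in blue, OV-BRCA1 in red, the marker shape giving the replicate and the black bars the mean and SD of 3 samples. IL13RA2, IL7R and IL15RA are separated between the groups, IL13RA1 sits at one level in all samples, and IL2RG and TSLP lie near 0.

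The reference promoters of the genes are shown because the transcript models of IL15RA divide over separate start sites and because IL7R and IL15RA differed between the groups. They are RefSeq windows on GRCh38.p14 that run from 250 bases before to 50 bases after an annotated start. There were 11 windows for 6 of the 8 genes. IL13RA2 and IL15 had no window, so their promoters were not searched. Capitals mark every match, on either strand, to the interferon regulatory factor core GAAANNGAA, the interferon response element that is this core followed by a further A, the STAT site TTCNNNGAA, the STAT6 site of TTC and GAA with 4 bases between them, the AP-1 site TGANTCA and the NF-kB consensus. The IL15RA windows are on the minus strand of chromosome 10, at chr10:5977997-5978296 for the upstream start and at chr10:5977562-5977861 for the downstream start. The IL7R window is on the plus strand at chr5:35856641-35856940.
IL15RA upstream start: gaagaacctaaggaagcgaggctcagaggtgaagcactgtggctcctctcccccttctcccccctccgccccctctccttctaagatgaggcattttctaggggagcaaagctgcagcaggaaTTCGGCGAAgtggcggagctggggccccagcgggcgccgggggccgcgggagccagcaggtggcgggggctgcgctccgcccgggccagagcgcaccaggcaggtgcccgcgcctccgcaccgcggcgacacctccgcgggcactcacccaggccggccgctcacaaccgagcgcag
IL15RA downstream start: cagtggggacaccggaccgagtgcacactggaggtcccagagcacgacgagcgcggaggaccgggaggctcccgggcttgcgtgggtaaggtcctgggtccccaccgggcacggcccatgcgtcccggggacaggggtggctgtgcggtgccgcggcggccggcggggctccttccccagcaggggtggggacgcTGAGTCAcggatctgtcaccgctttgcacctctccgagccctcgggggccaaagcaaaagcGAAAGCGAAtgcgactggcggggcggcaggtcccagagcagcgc
IL7R: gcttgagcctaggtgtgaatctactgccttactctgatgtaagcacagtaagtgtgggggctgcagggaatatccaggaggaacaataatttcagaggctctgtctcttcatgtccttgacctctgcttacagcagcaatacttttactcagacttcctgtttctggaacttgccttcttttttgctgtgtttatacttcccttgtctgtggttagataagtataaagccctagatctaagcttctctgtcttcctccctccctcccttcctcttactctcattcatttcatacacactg

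The downstream IL15RA window held GAAAGCGAA starting 6 bases after the annotated start and TGAGTCA starting 55 bases before it. The core GAAANNGAA occurs in 8.11% of all 35116 windows of this length and TGANTCA in 7.71%. The upstream IL15RA window held TTCGGCGAA, a match to TTCNNNGAA, which occurs in 7.66% of all windows. Of the other 2 IL15RA windows, 1 overlaps the downstream window and holds the same matches, and the other holds TGAGTCA. The longer interferon element, found in 3.57% of windows, and the STAT6 site, found in 6.44%, matched none of the 11 windows. The IL7R window held no match to any of the 6 motifs, and neither did those of IL13RA1 and IL2RG. TTCNNNGAA also matched 1 of the 3 TSLP windows, and NF-kB matches lay in the IL4R window and in another TSLP window, against 5.91% of all windows. Base composition differed widely, from 40.0% G and C in a TSLP window to 79.3% in the IL4R window, with 44.3% for IL7R and a median of 58.7% over all windows. A match of letters is not evidence of binding.

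Among the IL-13 receptors, the decoy IL13RA2 differed between the groups and the signaling chain IL13RA1 did not separate them. IL13RA2 (ENSG00000123496, chromosome X, 115003975 to 115019977) stood at 28.9, 26.7 and 28.4 FPKM in the OV-BRCA1 samples and at 2.99, 2.65 and 2.59 FPKM in the NC samples. The lowest OV-BRCA1 sample was far above the highest NC sample, and the spread within each group was small. The group means differed 10.2-fold in FPKM, and the log2 fold change was 2.95 (standard error 0.07), in place 40 from the top among the 16321 genes tested. An estimated 546 to 593 fragments per sample lay behind the OV-BRCA1 values and 62.8 to 69.9 behind the NC values, so the NC level is the less precise one.

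IL13RA1 (ENSG00000131724, chromosome X, 118727572 to 118794539) stood at 30.0, 30.2 and 32.2 FPKM in the OV-BRCA1 samples and at 31.8, 31.4 and 31.4 FPKM in the NC samples. The groups overlapped, and the log2 fold change was -0.03 (standard error 0.05). Since FPKM is a level per length, the chains can be set against each other within a sample. The ratio of IL13RA2 to IL13RA1 was 0.961, 0.883 and 0.882 in the OV-BRCA1 samples and 0.0942, 0.0845 and 0.0825 in the NC samples. RNA of the decoy chain was thus nearly level with that of the signaling chain in the OV-BRCA1 group and far below it in the NC group.

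IL4R (ENSG00000077238, chromosome 16, 27313668 to 27364778), the chain that completes the IL-4 and IL-13 receptor, was low and scattered. It stood at 2.88, 1.79 and 4.41 FPKM in the OV-BRCA1 samples and at 1.80, 3.37 and 0.907 FPKM in the NC samples. The groups overlapped, and the log2 fold change of 0.44 had a standard error of 0.36. Single samples set its size, which fell to 0.15 without NC replicate 3 and came to 0.75 without NC replicate 2. The ratio of IL4R to IL13RA1 lay between 0.0289 and 0.137 over the 6 samples, so RNA of the shared chain was the scarcer of the pair in every sample. The files spread IL4R over 19 transcript models, of which only 2 were above 0 in all samples, and IL4R shares 339 exonic bases with AC106739.1 on the opposite strand, itself at most 0.295 FPKM.

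**Figure D2:**
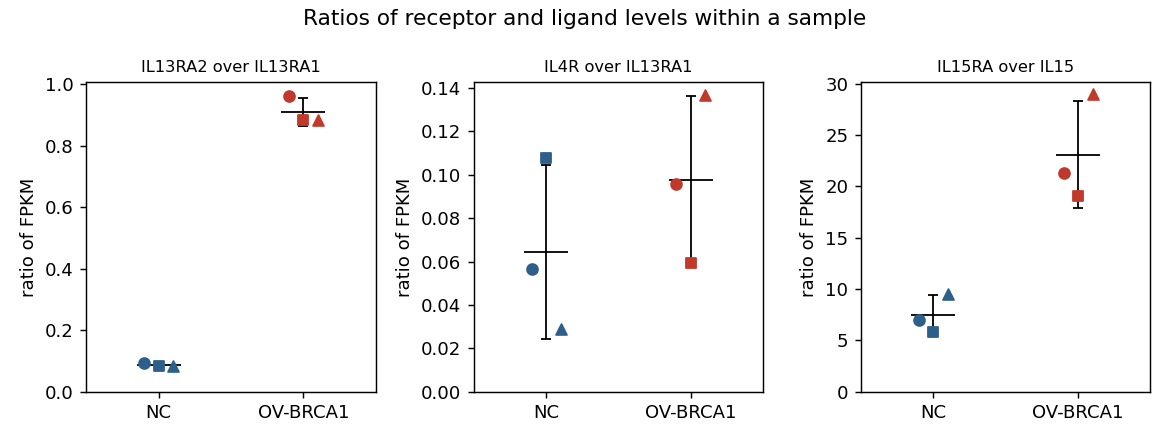
Ratios of FPKM within a sample, on the vertical axes from 0, for IL13RA2 over IL13RA1, IL4R over IL13RA1 and IL15RA over IL15, with NC in blue, OV-BRCA1 in red and black bars for the mean and SD of 3 samples. The first ratio lies at 0.909 ± 0.0455 in OV-BRCA1 and 0.0871 ± 0.00627 in NC, the IL4R ratio overlaps between the groups, and the IL15RA ratio lies at 23.1 ± 5.22 and 7.45 ± 1.93.

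IL7R, the alpha chain of the receptors for IL-7 and TSLP, was low in the NC group. IL7R (ENSG00000168685, chromosome 5, 35852695 to 35879603) stood at 8.997, 9.835 and 9.319 FPKM in the OV-BRCA1 samples and at 0.968, 1.19 and 0.751 FPKM in the NC samples. The groups lay far apart beside a spread of 0.423 and 0.219 FPKM (SD, n = 3 each). The means differed 9.68-fold, close to IL13RA2, yet the log2 fold change was smaller at 2.40 (standard error 0.10), because the added 1 weighs more on a gene near 1 FPKM. With 0.1 added in its place the values were 3.17 for IL7R and 3.31 for IL13RA2. Behind the NC values of IL7R were 45.6 to 74.8 estimated fragments.

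The chains that IL7R needs to signal were barely present as RNA. IL2RG (ENSG00000147168, chromosome X, 71107404 to 71112108) stood at 0.522, 0.122 and 0.0721 FPKM in the OV-BRCA1 samples and at 0.167, 0.28 and 0 FPKM in the NC samples. An estimated 14.3 fragments was the most in any sample, the groups overlapped, and the gene did not pass the filter on low values. IL2RG also shares 1403 exonic bases with AL590764.2 on the same strand, so even these fragments may not all be its own. CRLF2, the TSLP receptor chain, stood at 0.242, 0.151 and 0.166 FPKM against 0.142, 0.0556 and 0 FPKM and was not tested.

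TSLP itself (ENSG00000145777, chromosome 5, 111070062 to 111078024) was not measurable at this depth. It stood at 0.0531 FPKM in OV-BRCA1 sample 1 and was listed at 0 in the other two samples, and NC samples 1, 2 and 3 stood at 0.0195, 0 and 0.0392 FPKM. No sample held more than an estimated 2.0 fragments, so no fold is given. The name of the cytokine thus stands in the set without a level that could be compared. IL-7, the other ligand of the IL7R chain, was present. IL7 stood at 2.20, 3.10 and 2.38 FPKM against 1.99, 1.60 and 1.83 FPKM, and its log2 fold change of 0.34 did not pass (adjusted p = 0.0752, limma, Benjamini-Hochberg). The alarm cytokine IL33 stood at 0.508, 0.882 and 0.824 FPKM against 0.0486, 0.0364 and 0 FPKM, below 1 FPKM throughout. It passed the filter of 0.5 FPKM in 3 samples only through the OV-BRCA1 group, so its entry into the test depended on the difference itself. In the fit with no filter its log2 fold change was 0.75 (adjusted p = 0.00654 from limma). Without OV-BRCA1 replicate 1, 2 or 3 it did not reach the filter and was not tested, and the fold change was 0.69 to 0.85.

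For IL-15 the receptor differed between the groups and the ligand overlapped. IL15RA (ENSG00000134470, chromosome 10, 5943639 to 5978187) stood at 41.4, 53.1 and 41.8 FPKM in the OV-BRCA1 samples and at 16.1, 14.6 and 12.9 FPKM in the NC samples. OV-BRCA1 sample 2 was above the other two, and all 3 were above every NC sample. The means differed 3.13-fold, and the log2 fold change was 1.58 (standard error 0.12). With the most abundant transcript in place of the sum it was 2.62 (standard error 0.289). That transcript was IL15RA-218, which has no annotated coding frame and whose division from similar models is uncertain. IL15 (ENSG00000164136, chromosome 4, 141636599 to 141733987) stood at 1.95, 2.79 and 1.44 FPKM in the OV-BRCA1 samples and at 2.30, 2.52 and 1.35 FPKM in the NC samples. Its group means were the same to 3 digits, 2.06 ± 0.68 and 2.06 ± 0.62 FPKM (SD, n = 3 each), with a standard error of 0.22 for the log2 fold change.

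Ordered by level, the OV-BRCA1 group ran IL15RA, IL13RA1, IL13RA2, IL7R, IL4R, IL15, IL2RG and TSLP. IL4R and IL15 overlapped there, and every other pair of neighbors was separate in the 3 samples. In the NC group the order was IL13RA1, IL15RA, IL13RA2, IL15, IL4R, IL7R, IL2RG and TSLP. IL15 and IL4R overlapped, as did IL4R and IL7R, and IL2RG and TSLP. IL13RA2 held the third place in both groups, while IL7R moved from overlap with IL4R in the NC group to a place clear above it.

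The screening criterion of the study was an adjusted p-value below 0.05 with an absolute log2 fold change above 1. It is applied here to a limma fit of log2(FPKM + 1), not to the DESeq test of the study. IL13RA2, IL7R and IL15RA exceeded its size threshold upward, and no p-value is used for the 8 genes. Of the 8 genes 6 passed the filter on low values, and 3.99% of all genes tested passed the criterion, 2.89% upward and 1.1% downward. Nothing is read from the number of the 8 genes above that size, since they were chosen on this difference.

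The transcript models show where the sums come from. IL13RA2 has 3 models, each with its own start, and all 3 were higher in every OV-BRCA1 sample than in any NC sample. The innermost, IL13RA2-201, made up 84.2% to 87.8% of the gene in the OV-BRCA1 samples and 69.3% to 78.2% in the NC samples. It stood at 24.01 ± 1.14 FPKM against 2.003 ± 0.124 FPKM (SD, n = 3 each). The middle model IL13RA2-202, which starts further upstream, stood at 2.04 ± 0.119 FPKM against 0.517 ± 0.108 FPKM, a smaller ratio of 3.95 beside 11.99 for the innermost. The ranges of the share of the innermost model did not overlap between the groups, which is given as a description of the same contrast.

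IL7R has 10 models, and IL7R-201, a protein-coding model, made up most of it. That model stood at 7.62, 8.31 and 7.19 FPKM in the OV-BRCA1 samples and at 0.516, 0.748 and 0.749 FPKM in the NC samples. The 4 models that start inside the IL7R window printed above held 87.2% to 92.1% of the gene in the OV-BRCA1 group and 93.9% to 100% in the NC group.

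IL15RA has 22 models, which fall into 7 groups of starts when starts within 150 bases of the next are joined. The upstream group of 5 models, which starts at 5978038 to 5978187, stood at 19.15, 19.97 and 18.75 FPKM in the OV-BRCA1 samples and at 5.81, 5.59 and 5.54 FPKM in the NC samples. The downstream group of 12 models, which starts at 5977492 to 5977611, stood at 15.9, 21.9 and 14.9 FPKM and at 8.78, 7.90 and 5.12 FPKM. Both start groups were higher in every OV-BRCA1 sample, 3.42-fold for the upstream and 2.42-fold for the downstream group by the means. The upstream sum was the steadier, with an SD of 0.62 and 0.142 FPKM against 3.80 and 1.91 FPKM downstream.

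Single IL15RA models were less steady than their sums. IL15RA-218, annotated as a processed transcript without a coding frame, stood at 17.3, 9.40 and 16.4 FPKM in the OV-BRCA1 samples. IL15RA-202, a second such model of the same start group, stood at 0.789, 9.42 and 0.924 FPKM. Where the first was low the second was high, and their sum was nearly the same in the 3 samples, so the division between them is uncertain. Protein-coding models held 53.7% to 62.7% of IL15RA in the OV-BRCA1 samples and 57.2% to 66.1% in the NC samples. IL15RA also shares 151 exonic bases with AL137186.2 on the same strand, which stood at 1.95 to 3.11 FPKM.

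**Figure D3:**
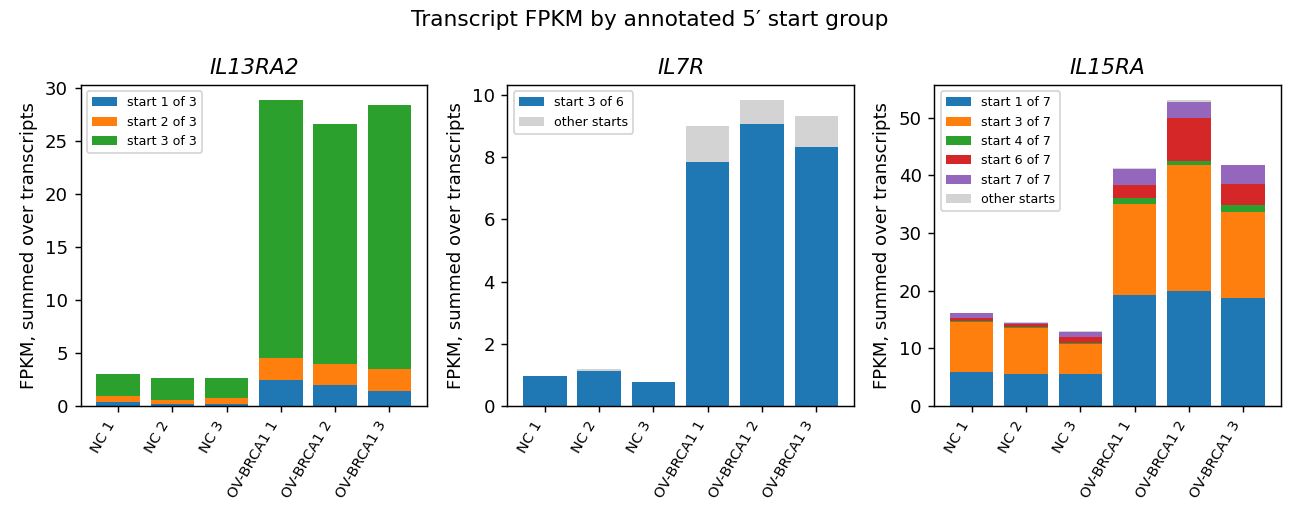
FPKM of IL13RA2, IL7R and IL15RA in each sample, with the bar heights on the vertical axes stacked by the group of annotated starts, numbered from the most upstream. Groups below 1 FPKM in every sample are in grey. The innermost start carries most of IL13RA2, 1 start group carries most of IL7R, and IL15RA divides between starts 1 and 3.

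The other genes of these pathways were taken from lists written from general knowledge, with earlier results of these data known. They are not among the 8, and their test results are given, but the lists are not independent of the data. An adjusted p-value below 0.05 was reached by 35.3% of all genes tested, upward by 16.4% and downward by 18.9%, and the median log2 fold change over all of them was -0.04. Of the other receptor chains that pair with or resemble these, IL2RA and IL2RB were listed at 0 in all samples, and none of the 5 passed the filter. Below the filter the groups did not overlap for IL9R and CRLF2, in opposite directions. IL9R stood at 0.117, 0.0738 and 0.102 FPKM in the OV-BRCA1 samples and at 0.2245, 0.215 and 0.313 FPKM in the NC samples. Of 8 further ligands 2 passed the filter, IL7 and IL33, and 4 were listed at 0 throughout, among them IL4. IL13 was at most 0.118 FPKM, so neither ligand of the IL-13 receptors was measurable as RNA in these cells.

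Among 22 signal transducers of these receptors, 21 passed the filter, PIK3CD only through the NC group. Of the other 20, 1 was higher and 4 were lower, with a median log2 fold change of -0.04. Without OV-BRCA1 replicate 2 the higher ones numbered 2, and with the most abundant transcript per gene the lower ones numbered 2. SOCS1, a feedback inhibitor of JAK kinases, rose from 3.39 ± 0.281 to 6.77 ± 1.2 FPKM (SD, n = 3 each, log2 fold change 0.81, adjusted p = 0.00417 from limma). TYK2, a kinase bound by IL13RA1, fell from 85.2 ± 12.8 to 56.6 ± 5.12 FPKM (log2 fold change -0.58, adjusted p = 0.0122 from limma). STAT5B, a transcription factor downstream of IL7R, fell from 27.8 ± 0.455 to 18.9 ± 1.21 FPKM (log2 fold change -0.54, adjusted p = 0.00147 from limma). JAK1, which most of these receptors use, fell from 38.1 ± 0.56 to 31.3 ± 0.515 FPKM (log2 fold change -0.28, adjusted p = 0.0053 from limma), and the adaptor SHC1 also fell. STAT6, the factor of IL-4 and IL-13, stood at 29.1, 31.0 and 28.5 FPKM against 29.2, 30.4 and 29.4 FPKM (adjusted p = 0.93 from limma). JAK3, the kinase of the common gamma chain, was listed at 0 in all samples.

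Of 25 genes known to respond to IL-4 or IL-13 in epithelial and other cells, 6 passed the filter. SERPINB2 passed it only through the OV-BRCA1 group, and of the other 5 genes 3 rose and none fell, with a median log2 fold change of 0.76. SERPINB2, an inhibitor of plasminogen activators, stood at 16.7, 15.9 and 15.4 FPKM against 0.499, 0.258 and 0.383 FPKM. Its log2 fold change was 3.63 in the fit with no filter (adjusted p = 3.51e-05 from limma), and 3.60 to 3.65 without OV-BRCA1 replicate 1, 2 or 3, where it did not reach the filter. SERPINB3 rose by 1.07 on the log2 scale, the crosslinking enzyme TGM2 by 0.77 and SERPINB4 by 0.76. SERPINB3 and SERPINB4 are near-identical neighbors whose reads can be split between them, so their values are uncertain. Among the genes of this list below the filter, the groups did not overlap for ALOX15 and CCL24, in opposite directions. ALOX15, a lipoxygenase, stood at 0.146, 0.058 and 0.201 FPKM in the OV-BRCA1 samples and at 0, 0 and 0.0188 FPKM in the NC samples, and did not pass in the fit with no filter (adjusted p = 0.0786 from limma). The chemokine CCL24 was listed at 0 in the OV-BRCA1 samples and stood at 0.322, 0.212 and 0.208 FPKM in the NC samples, and it was lower in the fit with no filter (adjusted p = 0.00686 from limma). The chemokine CCL11, the matrix protein POSTN, CLCA1 and CST1 were listed at 0 in all samples. The mucin MUC5AC was at most 0.003 FPKM, and the chemokine CCL26 reached at most 0.522 FPKM with overlapping groups.

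Of 12 genes that respond to IL-7 or IL-15, 7 were tested, 2 rose and 2 fell, and 1 fell without OV-BRCA1 replicate 1, OV-BRCA1 replicate 3 or NC replicate 2. With the most abundant transcript per gene 1 was higher and 1 lower. BCL2L1, an inhibitor of apoptosis, rose from 57.9 ± 1.24 to 106 ± 3.70 FPKM (log2 fold change 0.86, adjusted p = 7.24e-05 from limma), and MCL1 rose by 0.20 on the log2 scale. The kinases PIM1 and PIM2 fell by 0.65 and 0.28. CISH, a feedback gene of STAT5, stood at 0.954 ± 0.273 against 0.97 ± 0.129 FPKM (adjusted p = 0.922 from limma). BCL2 was below 1 FPKM in every sample, and CCND2 was listed at 0.

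Among 24 other class I cytokine receptor chains 11 were tested, 3 rose and 2 fell, and with the most abundant transcript per gene 1 was higher and 2 were lower. None passed the criterion in the limma fit with 1 added to FPKM. With 0.1 added IL3RA (log2 fold change 1.06) and IL11RA (-1.05) passed it. The study, which used DESeq, lists IL11RA among its downregulated genes. IL3RA rose from 1.57 ± 0.33 to 3.34 ± 0.319 FPKM (log2 fold change 0.76, adjusted p = 0.00452 from limma) and IL6ST (gp130) from 12.8 ± 0.164 to 21.9 ± 0.688 FPKM (0.73, adjusted p = 2.46e-04 from limma). IL11RA fell from 7.91 ± 0.78 to 3.79 ± 0.479 FPKM (-0.90, adjusted p = 0.00165 from limma). IL3RA and CRLF2 lie in the part that the X and Y chromosomes share, where reads cannot be assigned to either copy. Of 10 genes of receptor shedding and trafficking 9 were tested, 1 rose and 1 fell. None was lower with the most abundant transcript per gene, and 2 were lower with no filter or when scaled to the nuclear protein-coding total. ERAP1, an aminopeptidase that promotes receptor shedding, rose by 1.00 on the log2 scale, just below the criterion, and by 1.10 with 0.1 added to FPKM, past it, while the protease BACE1 fell by 0.45. The metalloproteases ADAM10 and ADAM17 stood at 11.9 ± 0.364 against 10.9 ± 1.12 FPKM and at 10.4 ± 1.41 against 8.70 ± 1.04 FPKM, and neither passed.

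**Figure D4:**
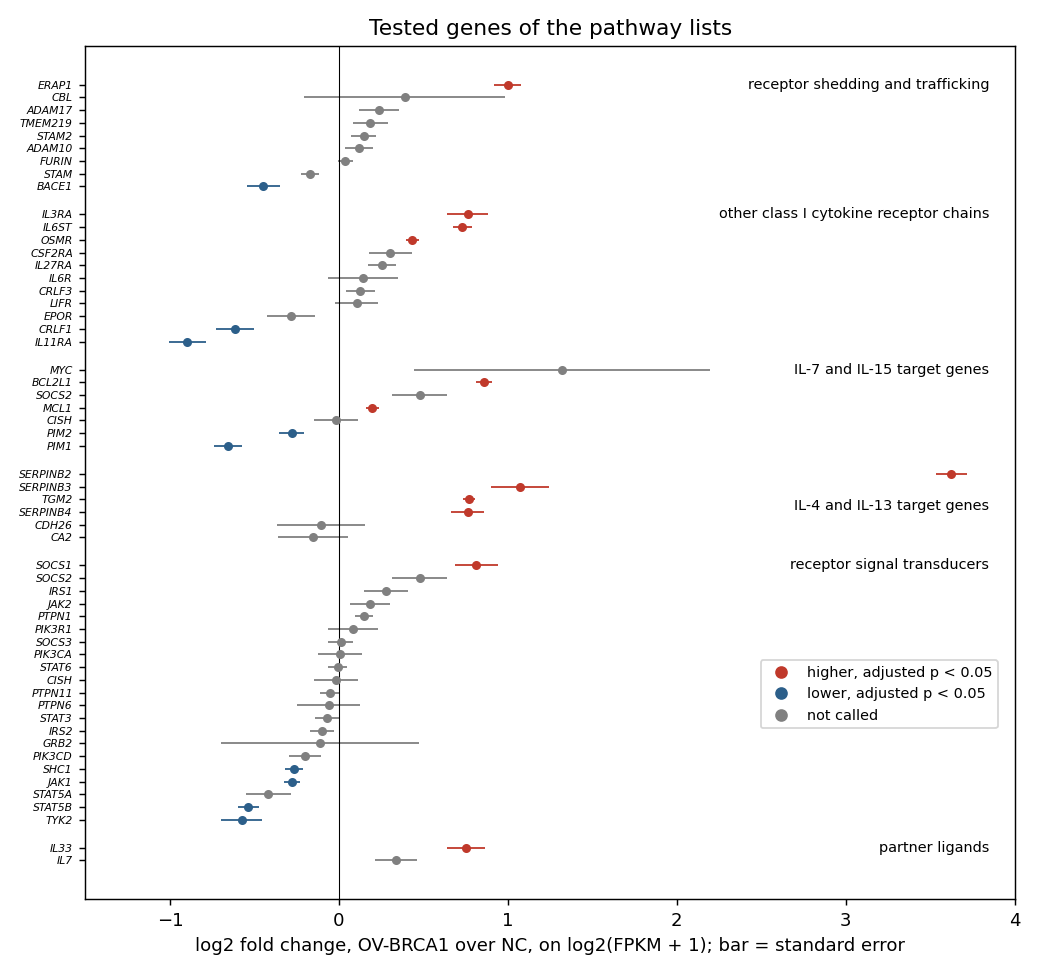
Log2 fold change of OV-BRCA1 over NC on log2(FPKM + 1), on the horizontal axis, for every tested gene of the pathway lists, with bars for the standard error and color for genes higher (red) or lower (blue) at an adjusted p-value below 0.05. SERPINB2 lies farthest out at 3.63, IL33 and SERPINB2 passed the filter only through the OV-BRCA1 group and PIK3CD only through the NC group, and most signal transducers lie near 0.

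The genes with the profile most like that of IL13RA2 were found by the root mean square difference of their log2(FPKM + 1) values over the 6 samples, each gene centered on its own mean. The profile follows the groups, so the measure finds genes with a like difference on the log2(FPKM + 1) scale, which need not be a like fold in FPKM. Nearest were the chemokine CXCL1 (difference 0.0467), the RNA sensor DDX58 (0.0601), CEACAM20 (0.0623), AC012435.1 (0.0674) and the prostaglandin synthase PTGS2 (0.0841). CXCL1 stood at 86.1, 84.9 and 84.8 FPKM against 11.4, 10.4 and 10.3 FPKM. CEACAM20 stood at 7.76 ± 0.324 against 0.131 ± 0.0466 FPKM (SD, n = 3 each), a wider fold than that of IL13RA2, and passed the filter only through the OV-BRCA1 group. For IL7R the nearest were the interferon-induced genes IFI44L (0.0823) and OASL (0.102), the death ligand TNFSF10 (0.0934), the histone gene HIST1H4H (0.104) and RGMA (0.105). The neighbors of IL7R were less close than the first of IL13RA2.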

How the data were processed

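The deposited values are FPKM per transcript, made by the authors after they had discarded low-quality reads and those with adapter sequence or unknown bases. The submitters' processing notes name FastQC, HISAT2 and hg38. The quantifier, the annotation and the use of strand are not given in the sources used here. Each sample file was identical to its column in the table of the whole series (199167 transcripts).

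Samples were grouped by their transfection labels. GENCODE release 29, which held 198868 of the transcripts (98.7% of them at the same GRCh38 position), gave gene names, and FPKM was summed per gene. The 16321 genes that reached 0.5 FPKM in 3 or more samples entered a two-sided limma fit of log2(FPKM + 1) with an intensity trend, with Benjamini-Hochberg adjustment. The authors' DESeq test needs counts and was not repeated. The 8 genes, the lists and the tests were chosen with earlier results of these data known.

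Depth was estimated from 14216 genes with 1 transcript as the number of fragments that best made low values whole. Only 32.8% to 40.1% of the low values came within 0.1 of whole fragments. No read counts could therefore be recovered, and the estimates cover counting error only. The study calls the samples biological replicates, but how they were separated is not given, and p-values measure the spread between these samples.

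Genes were named by a rule, namely BRCA1, the 8 genes, JAK1, JAK3, TYK2, STAT6, CRLF2, IL4, IL7, IL13, list genes past the criterion with up to 3 more per list by size of change, and the 5 genes most like IL13RA2 and IL7R. TSLP, also in that part of the rule, was not tested and got none. IL33, PIK3CD, KRT5, KRT6A, KRT7, KRT14, KRT19, CDH1, TP63, ALOX15, CCL24, PTPRC, CD3D, MYC, SHC1, MCL1, CISH, BCL2, CCND2, ADAM10, ADAM17, the list genes given at 0 or below 1 FPKM and the genes overlapping a member were chosen for naming with their values in view, as was the grouping of starts. Protein sequences were not used here. The alternatives were a pseudocount of 0.1, no filter, other scalings, leaving out each sample, a block for the replicate number and the most abundant transcript per gene. The software was limma 3.58.1 in R 4.3.3, and pandas 2.3.3, numpy 2.4.6 and matplotlib 3.10.9 in Python 3.11.15.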

Additional observations from a re-analysis of the deposited data

How the results depend on the processing

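For the 6 of the 8 genes with a fold change, no alternative moved IL13RA1, IL4R or IL15 by more than their spread between replicates, and leaving out each sample in turn gave log2 fold changes of 2.92 to 3.0 for IL13RA2, 2.32 to 2.48 for IL7R, 1.46 to 1.65 for IL15RA and 0.15 to 0.75 for IL4R. With the most abundant transcript in place of the sum the values were 3.06 for IL13RA2 and 2.62 for IL15RA, and IL4R and IL15 did not pass the filter. For IL15RA that transcript was IL15RA-218, whose division from other models of its start group is uncertain.

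Over all genes, 472 passed the criterion upward and 179 downward in the limma fit, against 764 and 516 with a pseudocount of 0.1. These counts are not those of the study, whose DESeq test was not repeated. With the pseudocount of 0.1 ERAP1, IL3RA, IL11RA and SERPINB4 also passed the criterion. IL33 and KRT6A did too, but they reached the filter only through the OV-BRCA1 group, so nothing is read from their passing. The adjusted p-value alone called 2674 higher and 3090 lower, against 1685 and 1606 with the most abundant transcript. Leaving out a sample gave 1906 to 2174 higher, 2217 to 2511 lower, 393 to 486 upward and 166 to 217 downward. In the lists, no filter gave 1 lower partner receptor chain, 1 lower IL-4 or IL-13 target (CCL24) and 2 lower genes of shedding and trafficking. Scaling to the nuclear protein-coding total gave 0 higher partner ligands and 2 lower shedding genes. The most abundant transcript gave 0 higher partner ligands, 2 lower transducers, 1 higher and 1 lower IL-7 or IL-15 target, 1 higher class I chain and 0 lower shedding genes. In these 2 settings IL33 was below the filter and not tested. The cause of the other shifts was not tested. Without one sample, the higher partner ligands numbered 0 to 1, with 0 without OV-BRCA1 replicate 1, 2 or 3, since IL33 reached the filter only in the OV-BRCA1 samples and was then not tested. The transducers numbered 1 to 2 higher and 4 to 5 lower, the IL-4 or IL-13 targets 3 to 4 higher, with 3 where SERPINB2 fell below the filter in the same way, and the IL-7 or IL-15 targets 2 to 3 higher and 1 to 2 lower, with 1 lower without OV-BRCA1 replicate 1, OV-BRCA1 replicate 3 or NC replicate 2.

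The labels share replicate numbers but name no pairing. Deviations of same-numbered samples correlated at -0.024, 0.025 and 0.014, so the numbers were not taken as pairs. With the replicate block 2159 genes were higher and 2436 lower, 470 upward and 176 downward past the criterion, and no list count moved by more than 1.5 times. Depth limits IL2RG and TSLP, which rest on at most 14.3 and 2.0 estimated fragments.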

Other observations

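Of 14 squamous epithelial markers 10 passed the filter, KRT6A only through the OV-BRCA1 group (1.10, 0.979 and 1.19 FPKM against 0.0278, 0.25 and 0.24 FPKM). Of the other 9, 4 rose and 2 fell, where 16.4% of all genes tested were higher and 18.9% lower. EPCAM, an epithelial adhesion molecule, rose from 2.59 ± 0.457 to 6.79 ± 0.86 FPKM (SD, n = 3 each, log2 fold change 1.12, adjusted p = 0.00143 from limma), and the desmosome gene DSP and the keratin KRT18 rose by 0.41 and 0.39 on the log2 scale. KRT17 fell from 1434 ± 8.68 to 1033 ± 90.3 FPKM (log2 fold change -0.48, adjusted p = 0.00263 from limma). Of 10 fibroblast and endothelial markers 2 were tested, and COL1A1 fell from 6.39 ± 0.379 to 3.28 ± 0.27 FPKM (log2 fold change -0.79, adjusted p = 0.00106 from limma). CD68 rose by 2.63 on the log2 scale and CD14 fell by 1.22 (adjusted p = 9.75e-05 and 5.94e-04 from limma), while the other myeloid markers stayed below 1 FPKM.

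MYC, a target of IL-7 in lymphocytes, varied within both groups, at 16.7, 2.42 and 11.4 FPKM in the OV-BRCA1 samples and 10.5, 1.09 and 1.00 FPKM in the NC samples, and its log2 fold change did not pass (adjusted p = 0.287 from limma).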
